A study of Homo sapiens with 8 samples.

Results

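The genes described here are 51 genes of DNA replication and of the passage from G1 into S phase, measured in HepG2 cells. They were taken from a list of symbols and matched by Ensembl gene ID. All 51 were found among the 20897 genes of the deposited files, and all 51 passed the filter on low values (at least 1 FPKM in at least 2 libraries), as did 12661 genes in all. HepG2 is an established human hepatocellular carcinoma line, so every library comes from 1 cell line. The study sequenced polyA RNA from cells given vehicle (DMSO, 3 libraries), genistein (3 libraries) or the growth factor BMP6 at 50 ng/ml (2 libraries). Cells of all groups were grown in 10% serum, kept in 1% serum for 8 h and then treated for 18 h, with 1% DMSO in the medium of all wells. Genistein was at 10 micromolar according to the design text of the series and at that number of millimolar according to the treatment protocol, so the dose is uncertain. The title of the series names the iron hormone hepcidin as its subject, and the replication genes were not its stated question. The design calls the libraries biological replicates, and nothing in the labels says whether they came from separate cultures, so p-values measure the spread between these libraries.

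Before S phase, the origin recognition complex, CDC6 and CDT1 load the MCM2-7 helicase onto DNA, a step called licensing that geminin (GMNN) restrains. CDC45 and the GINS complex then switch the helicase on, RPA coats the single strands, primase starts each strand, and the polymerases extend it with the sliding clamp PCNA, which RFC loads. E2F factors and cyclin E with its kinase drive entry into S phase, and many replication genes carry E2F sites in their promoters. Hepatocytes in adult liver are mostly quiescent, while HepG2 cells divide in culture.

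Some promoters of the genes, but not all, hold this E2F sequence. The sites below are shown for 2 of the genes called after genistein (UNG and E2F2) and for MCM3, called between genistein and BMP6. The other sites shown are examples from the helicase, its activators, the clamp and its loaders that were not called. In the RefSeq promoter table (GRCh38.p14), a window of 300 bases, 250 before to 50 after each start, was searched on both strands for TTTCCCGC, TTTCGCGC, TTTGCCGC and TTTGGCGC, with overlapping matches each counted. Of the 51 genes, 42 had a window, and 22 of these (52.4%) held at least 1 of the 8-base words, against 3.99% of all genes in the table. Counted by window, the share was 41.5% of 53 windows against 3.31% of all windows of the same length. A match is a description of the letters and not evidence that a factor binds there. MCM2, MCM3 and MCM7 had 2 matches each, of which 1 is in capitals below. The other match of MCM2 overlaps the capitals on the opposite strand. The sites follow 5′ to 3′ on the strand read, with the 8-base word in capitals, for UNG (chr12:109098099-109098126, plus strand), E2F2 (chr1:23531258-23531285, minus), GINS2 (chr16:85688968-85688995, plus), RFC3 (chr13:33818084-33818111, minus), MCM2 (chr3:127598403-127598430, plus), MCM3 (chr6:52284729-52284756, minus), MCM7 (chr7:100101389-100101416, minus) and PCNA (chr20:5126664-5126691, plus).
UNG: agggaggtttTTTGCCGCgaaaagacca
E2F2: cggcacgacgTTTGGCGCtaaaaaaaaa
GINS2: cggccgccgtTTTCCCGCcacggcgaga
RFC3: agagacaagtTTTCCCGCgagctccaaa
MCM2: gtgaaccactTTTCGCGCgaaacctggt
MCM3: gttcggaagtTTTCGCGCcggggtggag
MCM7: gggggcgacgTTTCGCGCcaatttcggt
PCNA: acgcacgcctTTTCCCGCccctgacgct

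MCM6 had 4 matches in its window. The stretch of 150 bases at chr2:135876444-135876593 (minus strand) holds 3 of them, in capitals, 2 of which overlap within 1 run.
MCM6: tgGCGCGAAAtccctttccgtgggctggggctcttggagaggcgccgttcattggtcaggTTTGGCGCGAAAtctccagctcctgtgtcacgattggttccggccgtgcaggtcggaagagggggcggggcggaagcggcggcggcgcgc

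CCNE2, also called after genistein, was among the 9 genes with no window. No match was found in the windows of FEN1, likewise called, or of PRIM1, CCNE1 and RRM2, which says no more than that these letters are not in those windows.

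Values are FPKM, which count fragments relative to the length of the transcript and the size of the library. Sequencing depth is not known. Differences are on the log2(FPKM + 1) scale, as limma estimates ± SE, and adjusted p is the Benjamini-Hochberg value over all 12661 genes, two-sided. A gene is called at an adjusted p under 0.05. An exact 0 can be a failed estimate, so such a gene is said to be listed at 0. In RNA from whole cultures, fewer cells in S phase and less RNA per cell cannot be told apart.

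Several libraries stood apart, for these genes and for all tested genes. DMSO 1 was the lowest DMSO library for 47 of the 51, and DMSO 2 and DMSO 3 were above it in 66.8% and 70.6% of all tested genes. Genistein 2 was the lowest genistein library for 31, with genistein 1 and genistein 3 above it in 75.6% and 48.1% of all tested genes. BMP6 2 was above BMP6 1 for 40, against 67.3% of all tested genes. Of the 51 genes, 4 were listed at 0 in genistein 2 (CCNE2, E2F2, POLD3 and POLE2) and at most 1 in each other library. Of the 12661 tested genes, 2167 were at 0 in genistein 2 and 356 to 1679 in the other libraries. The median of all tested genes on the log2 scale was also lower in DMSO 1 (4.98) and BMP6 1 (4.85) than in BMP6 2 (5.40). All 10 hepatocyte markers were present, with a summed level of 134000 to 226200 FPKM over the 8 libraries, but single markers moved in opposite directions. ALB was 17949 to 40448 FPKM in DMSO, 45780 to 61916 after genistein, and 143115 and 59633 after BMP6. After genistein APOA1 (50517 to 58896 FPKM in DMSO against 3983 to 12742) and TTR (7162 to 8195 against 822 to 1576) were lower. PTPRC, CD3E and CSF1R were at 0 in every library, as were 5 of 6 fibroblast markers. The other, PDGFRB, was 1.88 to 4.91 FPKM in DMSO and 19.5 and 14.3 after BMP6. Summed leukocyte markers were 3250 to 4859 FPKM in DMSO, 1242 to 1955 after genistein and 1562 to 2401 after BMP6, and nearly all of each sum was LYZ (3219 to 4807, 1149 to 1839 and 1493 to 2344 FPKM). The other detected leukocyte markers went the other way after genistein, with CD68 at 31.4 to 40.6 FPKM in DMSO against 68.8 to 86.7, and CD14 at 0 to 19.3 against 23.9 to 74.4. Summed cholangiocyte markers were 1471 to 2256, 526.2 to 1118 and 314.4 to 2115 FPKM in DMSO, genistein and BMP6. Within that sum SOX9 (751 to 1303 FPKM in DMSO, 143 to 238 after genistein) and EPCAM (343 to 743 against 118 to 191) were lower, while KRT19 was 210 to 327 FPKM in DMSO, 265 to 714 after genistein, and 143 and 1645 after BMP6. The part of these markers in the results was not tested.

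In vehicle, the genes spanned a wide range of levels per length. PCNA, the sliding clamp, was highest at 746 ± 145 FPKM (SD, n = 3). RFC4, RRM2, GMNN and MCM3 followed at means of 257, 256, 244 and 244 FPKM, and their order is not separated by their spread. RFC4, a clamp loader subunit, owed its place to DMSO 1, where it read 542 FPKM against 138 and 90.3 in the other two. The cyclin gene CCNE2 was lowest at 4.71 ± 1.94 FPKM. Subunits of 1 complex were not at equal levels: MCM6 was the lowest MCM2-7 subunit and GINS2 the highest GINS subunit in all 8 libraries. RPA3 was the highest and RPA2 the lowest RPA subunit in all 8.

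**Figure D1:**
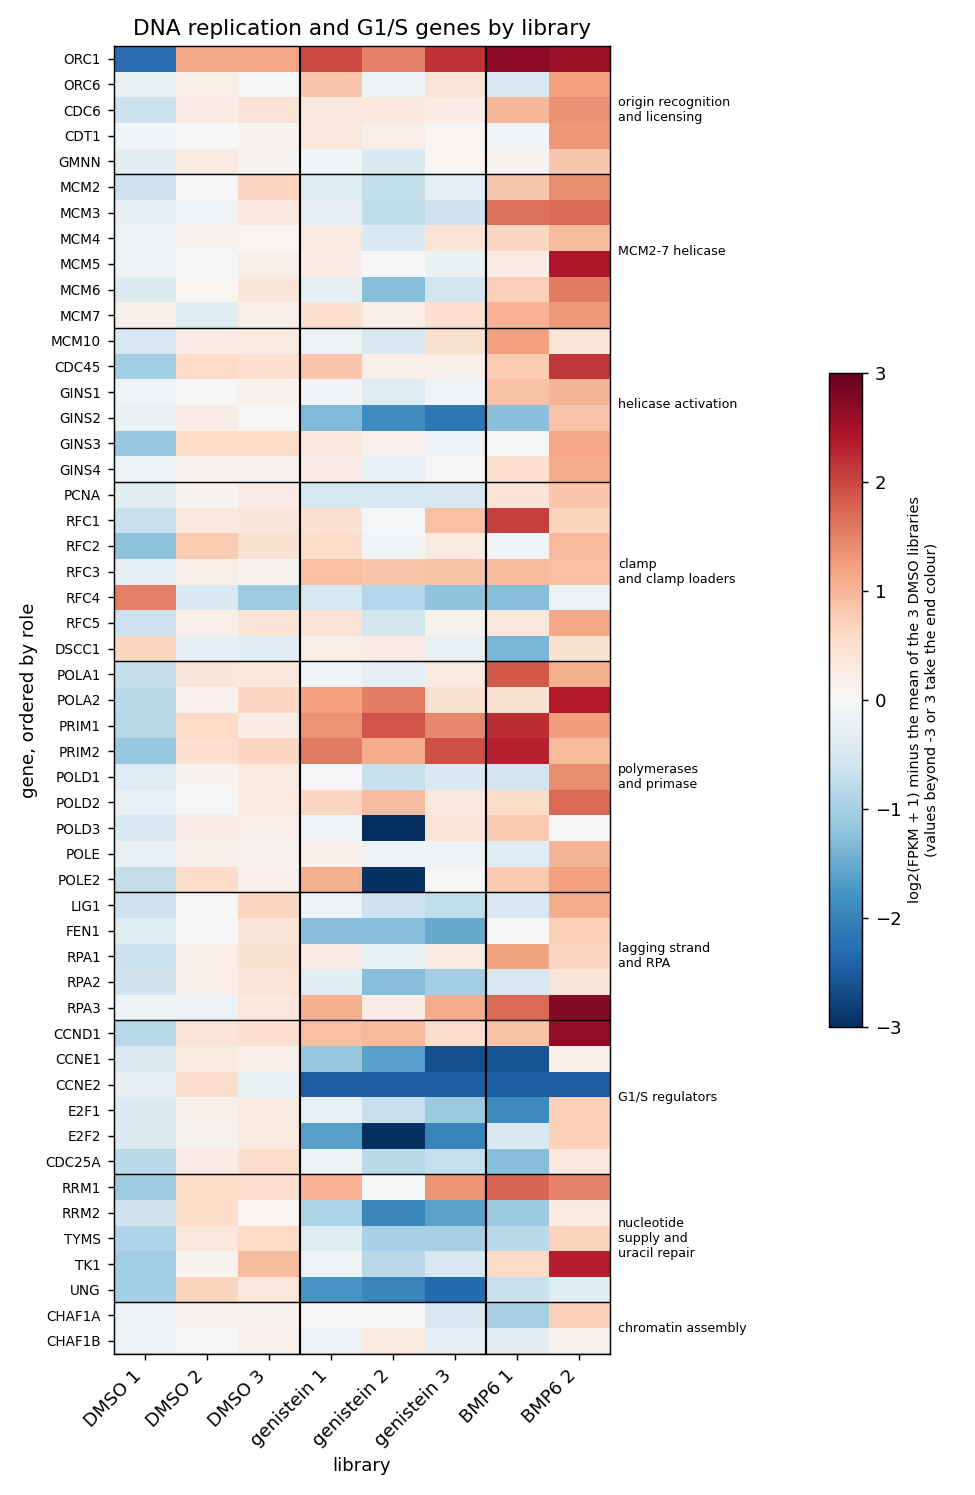
Level of each of the 51 genes (rows, by role) in each of the 8 libraries (columns), coloured by expression. BMP6 2 holds the highest value of 32 of the 51 genes, and DMSO 1 the lowest of 19.

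Genistein against vehicle asked how the replication genes stood after the isoflavone genistein, a known tyrosine kinase inhibitor. The list did not move as a block: 4 of 51 genes fell and none rose. The 4 were CCNE2 and E2F2, which act at entry into S phase, FEN1, the nuclease that trims lagging-strand flaps, and UNG, which removes uracil from DNA. That is 7.84% of the genes, against 12.1% of all genes tested (5.96% lower, 6.11% higher). CCNE2 passed the filter through its DMSO values alone, so it could only come out lower. The median difference was -0.06 for the list and 0.05 for all genes, with 22 genes above 0 and 29 below.

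UNG (ENSG00000076248, chr12:108019798-108033181 in hg18, the build of the files) read 85.9, 279 and 223 FPKM in DMSO and 50.8, 43.8 and 34.5 FPKM after genistein. All 3 genistein libraries lay below all 3 DMSO libraries, and the ratio of group means was 4.55-fold lower. The log2 difference was -2.02 ± 0.46 (limma, adjusted p = 0.0286).

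FEN1 (ENSG00000168496, hg18 chr11:61316726-61321284) read 54.5, 71.5 and 90.9 FPKM in DMSO and 28.6, 29.03 and 24.3 FPKM after genistein. The groups did not overlap, and the mean was 2.65-fold lower, and the log2 difference was -1.35 ± 0.34 (limma, adjusted p = 0.0387). The genistein mean was 27.3 ± 2.61 FPKM (SD, n = 3).

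E2F2 (ENSG00000007968, hg18 chr1:23705509-23730300), an activating E2F factor, read 6.29, 9.42 and 10.8 FPKM in DMSO and 2.13, 0 and 1.41 FPKM after genistein. Every genistein library was below every DMSO library, and 1 was listed at 0. The log2 difference was -2.30 ± 0.57 (limma, adjusted p = 0.0389).

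CCNE2 (ENSG00000175305, hg18 chr8:95951746-95976660), which encodes cyclin E2, read 3.48, 6.95 and 3.71 FPKM in DMSO and was listed at 0 in all 3 genistein libraries (limma, adjusted p = 0.0154). It was listed at 0 in both BMP6 libraries too, so no fold is given. The filter kept CCNE2 only through the DMSO libraries, so the direction of its call was fixed in advance. CCNE2 overlaps INTS8 in the files' coordinates, and the sources used here do not say whether counting used strand.

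CCNE1, the partner gene for cyclin E1, read 57.8, 95.4 and 88.4 FPKM in DMSO and 35.1, 24.9 and 11.8 FPKM after genistein. The groups did not overlap, but the difference of -1.80 ± 0.70 did not pass (limma, adjusted p = 0.132). RRM2, the small subunit of the enzyme that makes deoxynucleotides, read 161, 355 and 252 FPKM against 126, 62.0 and 79.6, again without overlap (-1.50 ± 0.48, limma, adjusted p = 0.081). GINS2 read 150, 203 and 172 FPKM against 68.4, 47.1 and 38.1, a mean 3.42-fold lower (-1.78 ± 0.53, limma, adjusted p = 0.0625). Each of these 3 genes had all genistein libraries below all DMSO libraries.

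In the other direction, the highest estimate was that of ORC1, of the origin recognition complex. ORC1 was listed at 0 in DMSO 1, read 9.78 and 9.89 FPKM in the other DMSO libraries and 18.2, 12.9 and 20.9 FPKM after genistein. The groups did not overlap, but the difference of 1.88 ± 0.87 did not pass (limma, adjusted p = 0.189), and it was 0.73 without DMSO 1. Both primase genes came next. PRIM1, the catalytic primase subunit, read 10.1, 29.1 and 22.1 FPKM in DMSO and 49.5, 72.6 and 52.7 FPKM after genistein. All genistein libraries were higher, and the difference was 1.56 ± 0.46 (limma, adjusted p = 0.0628). PRIM2, its large subunit, which has near-identical copies that could share its fragments, read 8.44, 27.9 and 31.3 FPKM against 59.8, 43.6 and 77.4 (1.53 ± 0.58, limma, adjusted p = 0.121). The clamp loader gene RFC3 read 33.6, 47.5 and 43.2 FPKM against 77.2, 73.8 and 76.4 (0.87 ± 0.28, limma, adjusted p = 0.0769). None of these 4 genes passed the test, although none overlapped between groups.

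By role, the licensing genes (5), the helicase (6), its activators (6), the clamp and loaders (7), the polymerases and primase (9) and the 2 chromatin assembly genes held no called gene. Of the G1/S regulators 2 of 6 fell, 1 of them CCNE2, whose direction was fixed in advance. Of the nucleotide supply and uracil repair genes 1 of 5 fell, and of the lagging-strand and RPA genes 1 of 5, against 5.96% of all genes. The regulator CCND1 read 84.0, 199 and 212 FPKM in DMSO and 285, 301 and 219 after genistein. It was higher without overlap but did not pass (0.80 ± 0.54, limma, adjusted p = 0.35). The helicase genes showed no common direction: MCM3 read 199, 227 and 304 FPKM in DMSO and 195, 141 and 155 FPKM after genistein (-0.56 ± 0.29), while MCM7 was 0.39 ± 0.29. MCM6 read 14.7, 20.9 and 26.1 FPKM against 16.2, 7.75 and 13.3 (-0.71 ± 0.43), overlapping vehicle. PCNA read 589, 775 and 874 FPKM against 514, 512 and 522 (-0.51 ± 0.31, limma, adjusted p = 0.304). In all, 9 genes did not overlap and were lower, against 20.6% of all genes, and 7 were higher, against 23.3%. At an unadjusted p under 0.05, limma gave 10 genes (7 lower, 3 higher), against 30.0% of all genes. Without DMSO 1, 23 genes lay lower without overlap, against 31.7% of all genes, without genistein 1 14 did, against 27.3%, and the genes that lay higher numbered 11 without DMSO 3 (29.4% of all genes) and 12 without genistein 2 (31.3%).

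Most of the other genes had genistein values inside or close to the vehicle range. The MCM loader CDC6 read 32.1, 59.2 and 68.9 FPKM in DMSO and 64.7, 64.1 and 59.3 after genistein (0.30 ± 0.35). RPA3, the smallest subunit of RPA, read 85.7, 84.4 and 118 FPKM against 201, 111 and 205 (0.80 ± 0.39), with genistein 2 inside the vehicle range and the other genistein libraries above it. The licensing factor CDT1 read 124, 132 and 139 FPKM in DMSO and 168, 152 and 138 after genistein (0.21 ± 0.38), and its inhibitor GMNN 189, 289 and 253 against 227, 176 and 252 (-0.15 ± 0.33). The helicase activator CDC45 read 11.7, 38.0 and 35.3 FPKM against 46.0, 29.1 and 29.2 (0.41 ± 0.55). GINS1, GINS3 and GINS4, whose products form 1 complex with that of GINS2, had differences of -0.19 ± 0.29, 0.09 ± 0.55 and 0.01 ± 0.35. So GINS2, at -1.78, was apart from its partners by its estimate, a contrast that was not tested.

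Nucleotide supply was split in the same way. RRM1, the large subunit of the reductase that RRM2 completes, read 12.6, 40.6 and 39.7 FPKM in DMSO and 57.2, 26.6 and 71.0 after genistein (0.77 ± 0.54), overlapping vehicle. Thymidylate synthase (TYMS), which overlaps TYMSOS in the files, read 112, 265 and 324 FPKM against 166, 109 and 107 (-0.77 ± 0.53). Thymidine kinase 1 (TK1) read 63.9, 142 and 255 FPKM against 121, 74.5 and 93.8 (-0.48 ± 0.60). Neither TYMS nor TK1 was separated from vehicle, whose own libraries spread widely.

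POLD3 and POLE2, subunits of polymerases delta and epsilon, show what a value of 0 does. POLE2 read 9.18, 23.5 and 17.6 FPKM in DMSO and 34.2, 0 and 16.0 after genistein (-0.98 ± 1.17), and POLD3 7.03, 11.9 and 11.7 against 9.27, 0 and 13.3 (-1.05 ± 0.94). The negative estimates came with genistein 2 listed at 0 while the other genistein libraries lay within or above the vehicle range. The chromatin assembly gene CHAF1A read 100.3, 120.3 and 120.4 FPKM in DMSO and 113, 112 and 80.1 after genistein (-0.17 ± 0.44). Its partner CHAF1B read 33.4, 37.6 and 40.8 FPKM against 32.8, 45.6 and 30.1 (-0.06 ± 0.32), and both overlapped vehicle.

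The 4 calls rested on the whole set of libraries. Without DMSO 2, genistein 1 or genistein 3, none of the 51 genes was called, without DMSO 3 or genistein 2 CCNE2 alone was, and without DMSO 1 CCNE2, FEN1 and UNG were, while these 6 fits called 1.83% to 8.14% of all genes. Leaving out BMP6 1 or BMP6 2, which changes the spread the fit shares, gave 9 calls, the 4 plus CCNE1, GINS2 and RRM2 lower and PRIM1 and RFC3 higher. That is 17.6% of the 51, against 21.1% and 21.2% of all genes in those fits.

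**Figure D2:**
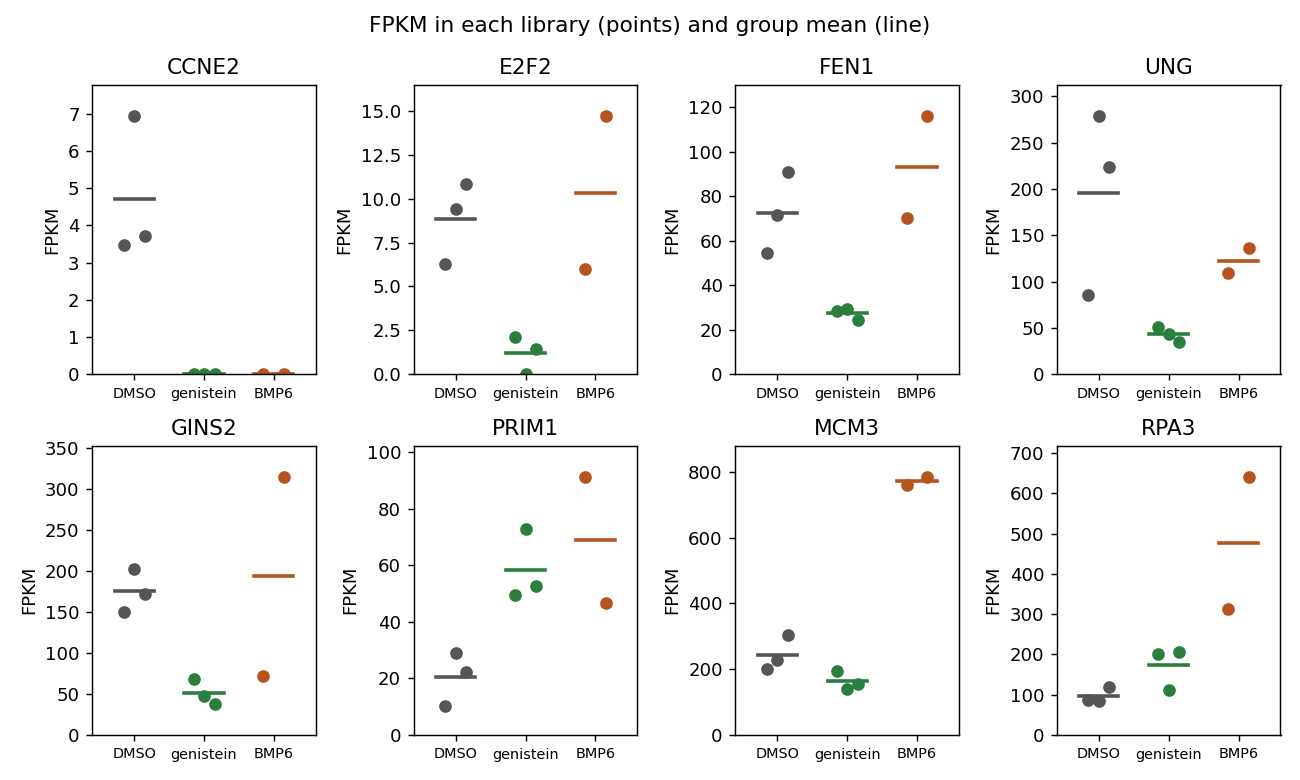
FPKM of the named genes in each library, by group, with points for libraries. UNG, FEN1 and E2F2 lie lower in all 3 genistein libraries than in all 3 DMSO libraries, and MCM3 is highest in the 2 BMP6 libraries.

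BMP6 against vehicle asked how the same genes stood after a ligand of the hepcidin pathway. No gene of the 51 passed the test (limma), against 0.837% of all genes (0.34% higher, 0.498% lower), and 18 had an unadjusted p under 0.05 (17 higher, 1 lower), against 18.9% of all genes. The values were nonetheless mostly above vehicle: 38 of 51 estimates were positive, with a median of 0.75 against -0.03 for all genes. In 24 genes both BMP6 libraries lay above all 3 DMSO libraries, against 16.1% of all genes, and in 1, CCNE2, both lay below, against 17.3%. CCNE2 could only lie below, since it passed the filter through DMSO alone.

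All 6 genes of the MCM2-7 helicase were among the 24. MCM3 (ENSG00000112118, hg18 chr6:52236771-52257541) read 199, 227 and 304 FPKM in DMSO and 761 and 785 FPKM in BMP6, a mean 3.17-fold higher. The 2 BMP6 libraries were close together and far above vehicle, with a difference of 1.69 ± 0.33 (limma, adjusted p = 0.0662). MCM7, which overlaps AP4M1 in the files, read 230, 160 and 236 FPKM against 427 and 502 (1.17 ± 0.32, limma, adjusted p = 0.133). MCM2, MCM4, MCM5 and MCM6 had differences of 1.098 ± 0.43, 0.77 ± 0.36, 1.32 ± 0.58 and 1.14 ± 0.48. MCM5 shows how far the BMP6 libraries could differ: it read 152 FPKM in BMP6 1 and 698 in BMP6 2, against 116 to 148 in DMSO. Summed over the 6 genes, DMSO libraries held 674, 688 and 909 FPKM, genistein libraries 800, 612 and 731, and BMP6 libraries 1618 and 2384.

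RPA3, the smallest RPA subunit, read 85.7, 84.4 and 118 FPKM in DMSO and 312 and 641 FPKM in BMP6. Both BMP6 values were above vehicle, by 2.23 ± 0.44 (limma, adjusted p = 0.0664). RPA2 of the same complex read 31.2, 54.7 and 63.2 FPKM against 33.7 and 61.7, within the vehicle range.

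The licensing and polymerase genes had positive estimates throughout, 5 of 5 and 9 of 9, with medians of 0.62 and 1.13. CDC6, the MCM loader, read 32.1, 59.2 and 68.9 FPKM in DMSO and 103 and 132 in BMP6 (1.18 ± 0.39). ORC1 read 30.4 and 27.9 FPKM in BMP6, above all DMSO libraries (2.62 ± 0.98). Some roles differed from this. Of the nucleotide supply and uracil repair genes 3 of 5 were negative (median -0.06), as were both chromatin assembly genes (median -0.13). Of the G1/S regulators 4 of 6 were negative (median -0.53), among them CCNE2, which could only lie below. CDC25A, another of these regulators, read 10.0 FPKM in BMP6 1, below vehicle, and 33.0 in BMP6 2, within the vehicle range. CCNE1 read 12.3 FPKM in BMP6 1, below vehicle, and 87.8 in BMP6 2, within its range. E2F1, another activating E2F factor, read 32.1 and 204 FPKM, on either side of the 91.5 to 150 in DMSO. Cyclin D1 (CCND1) read 84.0, 199 and 212 FPKM in DMSO and 282 and 963 in BMP6 (1.77 ± 0.60, limma, adjusted p = 0.181).

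Primase and polymerase alpha were among the higher genes. PRIM1 read 91.3 and 46.5 FPKM in BMP6, above the 10.1 to 29.1 in DMSO (1.74 ± 0.52), and POLA1, the catalytic subunit of polymerase alpha, 36.8 and 21.0 FPKM, above 5.45 to 12.7 (1.45 ± 0.50). RFC3 read 79.8 and 78.0 FPKM, close to its values after genistein (0.93 ± 0.31). RRM1 read 94.96 and 77.2 FPKM in BMP6, above vehicle (1.60 ± 0.61), while RRM2 read 112 and 296 FPKM, overlapping it (-0.41 ± 0.54). PCNA read 977 and 1312 FPKM, above vehicle in both libraries (0.62 ± 0.35). UNG, the base excision enzyme, read 109 and 136 FPKM, within the vehicle range (-0.52 ± 0.51), and FEN1 69.9 and 116 FPKM (0.34 ± 0.38).

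The list's median stayed above that of all genes by 0.69 to 0.83 in each setting tried. With BMP6 1 left out, 41 genes lay above vehicle, against 41.3% of all genes, and with BMP6 2 left out 25 did, against 27.1%, while 14 lay below, against 43.2%. Without BMP6 2, 6 genes were called, MCM3, PRIM1, RFC1 and RPA3 higher and CCNE1 and E2F1 lower, which is 11.8% of the 51 against 15.9% of all genes in that fit.

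**Figure D3:**
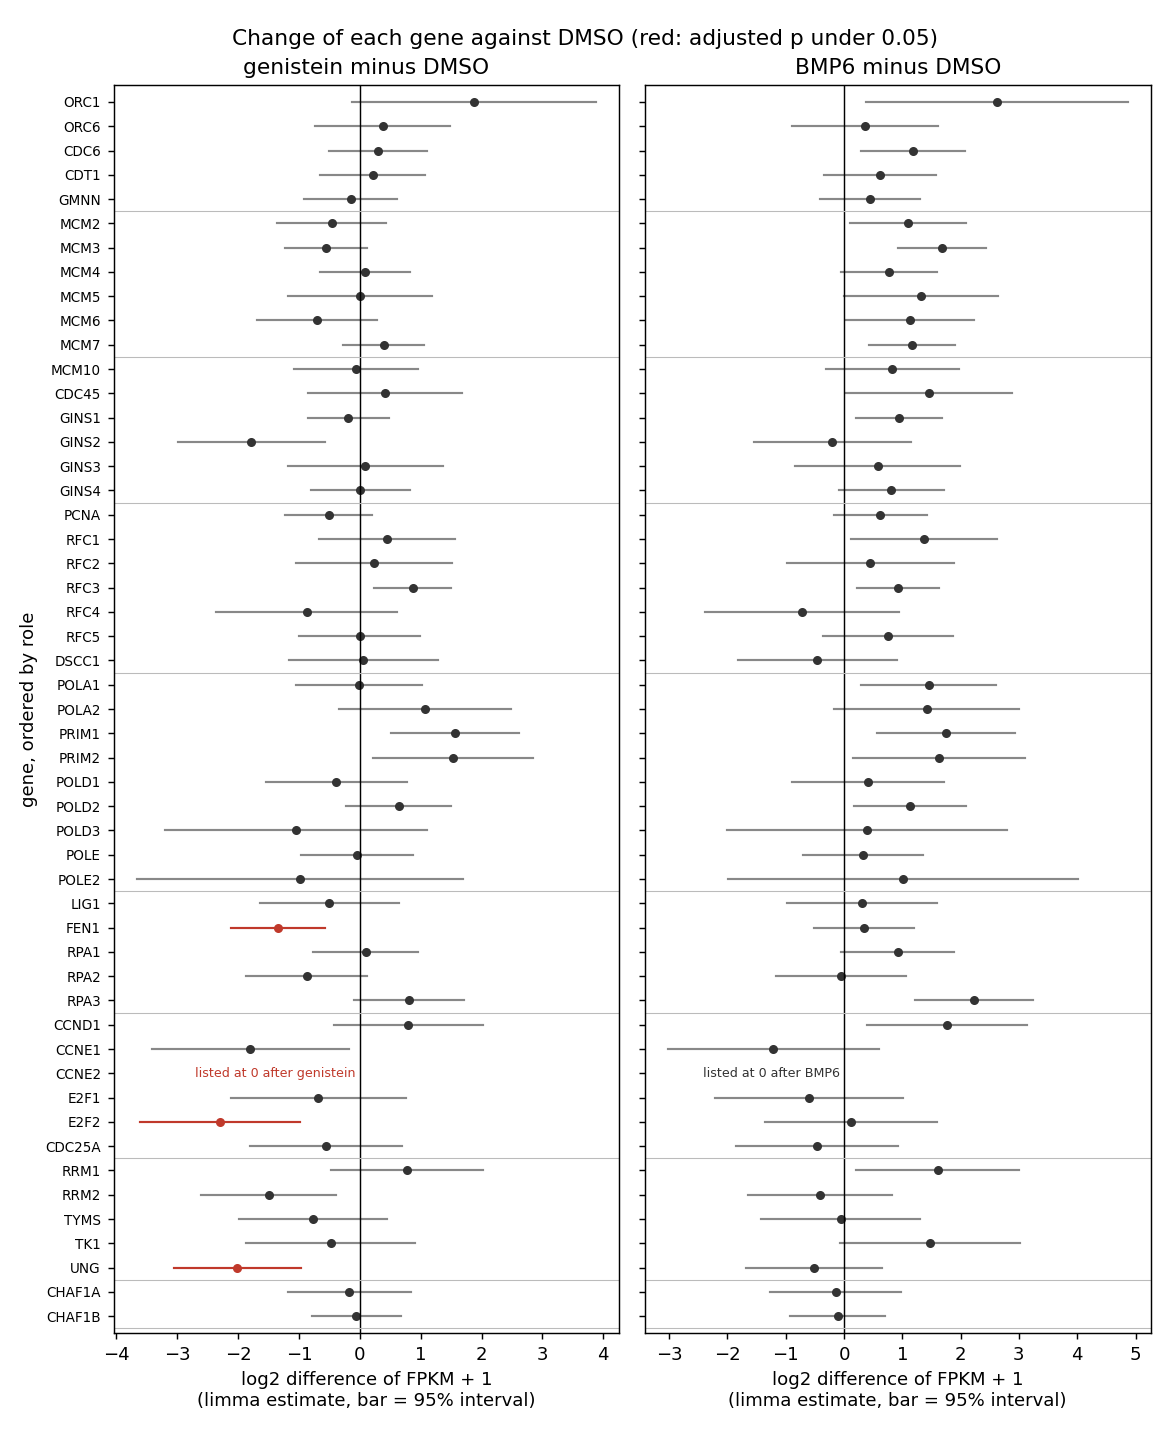
Estimated log2 difference from DMSO with its 95% interval for each gene, after genistein (left) and BMP6 (right), red where the adjusted p is under 0.05. The 4 red genes are all on the left, and CCNE2 is written as listed at 0.

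Genistein against BMP6 shares the genistein and BMP6 libraries with the comparisons above, and the values are set side by side without an overlap of lists. MCM3 read 195, 141 and 155 FPKM after genistein and 761 and 785 after BMP6, the 1 gene of the 51 that passed, against 1.39% of all genes (0.75% lower, 0.64% higher). It was 4.72-fold lower by group means, with a difference of -2.25 ± 0.33 (limma, adjusted p = 0.0205). FEN1 read 28.6, 29.03 and 24.3 FPKM against 69.9 and 116 (-1.69 ± 0.38, limma, adjusted p = 0.0784), and MCM6 16.2, 7.75 and 13.3 against 33.8 and 60.6 (-1.84 ± 0.48, limma, adjusted p = 0.124). Of the 51 estimates 47 were negative and 3 positive, with a median of -0.81 against 0.12 for all genes. In 21 genes all genistein libraries lay below both BMP6 libraries, against 12.6% of all genes, and in none were they above, against 16.3%. Without BMP6 1, 44 genes lay below, against 41.4% of all genes, and without BMP6 2 9 lay above, against 49.0%. The call for MCM3 was lost without DMSO 2 or without any 1 of the genistein libraries (adjusted p of at most 0.108), and without BMP6 1 there were 3 calls, GINS2, MCM3 and MCM5, against 1.09% of all genes in that fit.

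**Figure D4:**
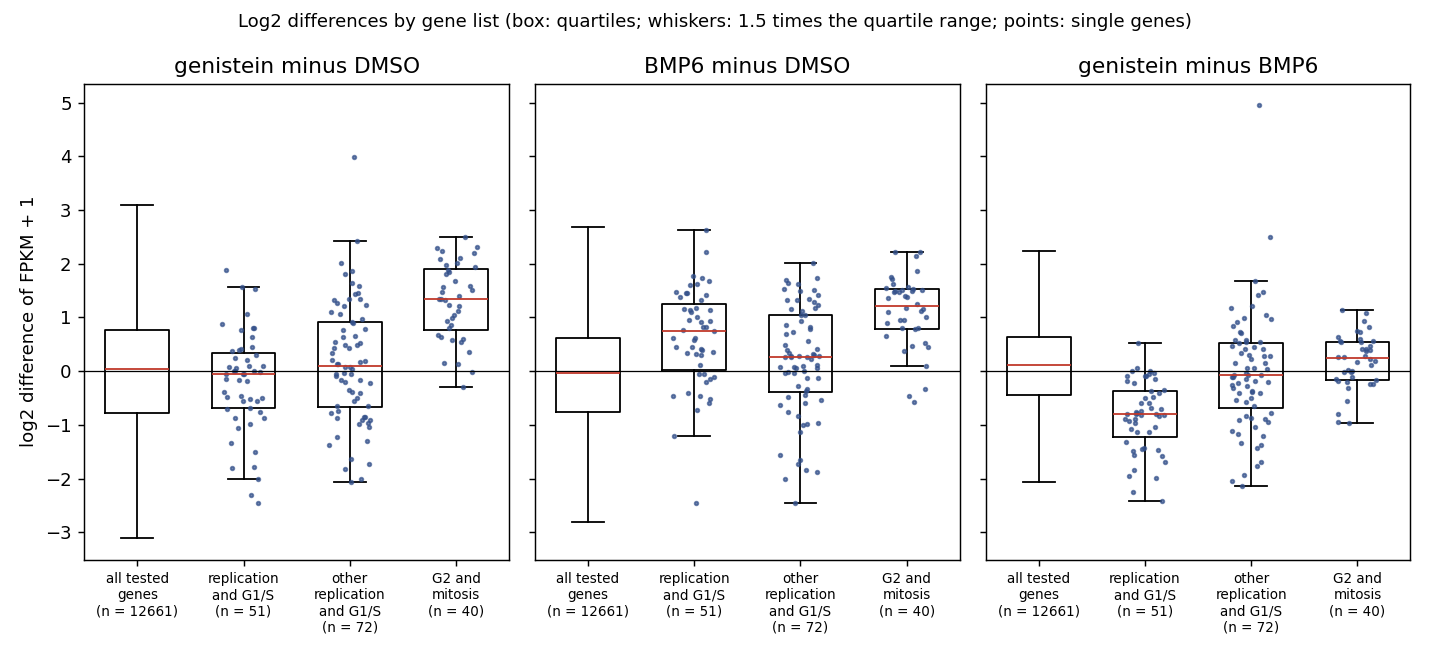
Distribution of log2 differences for the 51 genes, the other replication and G1/S genes, the G2 and mitosis genes and all genes tested. After BMP6 the medians are 0.75, 0.26, 1.21 and -0.03, and after genistein -0.06, 0.10, 1.35 and 0.05.

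Of 72 other tested genes of the pathway, listed by function, 7 rose and 1 fell after genistein. That is 11.1%, close to the 12.1% of all genes. CDKN2B, an inhibitor of the G1 kinases that overlaps MTAP in the files, read 1.35, 0 and 2.15 FPKM in DMSO, 41.2, 31.7 and 20.5 after genistein and was listed at 0 in both BMP6 libraries (3.99 ± 0.55 against DMSO, limma, adjusted p = 0.00692). The histone chaperone ASF1A (1.87 ± 0.34), the origin genes ORC3 (1.46 ± 0.34), ORC4 (2.01 ± 0.43) and ORC5 (1.23 ± 0.33), the phosphatase CDC25B (1.64 ± 0.38) and the repressor E2F6 (1.81 ± 0.45) also rose. SKP2, which marks the inhibitor p27 for destruction, read 48.1, 109 and 176 FPKM in DMSO and 24.1, 20.2 and 23.2 after genistein (-2.07 ± 0.46, limma, adjusted p = 0.0274). CDKN2B kept its call with any 1 library left out, and the other 7 genes each lost it in 4 to 6 of 8 such fits. The count was 1 without DMSO 2 or any 1 genistein library, and 3 (4.17%) without DMSO 1 or DMSO 3. Of all genes, 1.83% were called without DMSO 2 and 4.74%, 4.56% and 2.23% without genistein 1, 2 and 3. Without DMSO 1 and DMSO 3 the shares of all genes were 8.14% and 5.49%. After BMP6 none of the 72 passed in limma, against 0.837% of all genes, with 18 (25%) at an unadjusted p under 0.05, against 18.9%. Leaving out BMP6 1 or BMP6 2 left a lone BMP6 library, so the calls of those fits are not read for the 72.

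Of the 40 G2 and mitosis genes, 18 (45%) rose after genistein and none fell, against 6.11% and 5.96% of all genes, with a median of 1.35. CCNB1, the mitotic cyclin B1, read 131, 207 and 212 FPKM in DMSO and 604, 502 and 521 after genistein (1.59 ± 0.30, limma, adjusted p = 0.0174). Without DMSO 2 or genistein 3, 1 of the 40 (2.5%) was called, against 1.83% and 2.23% of all genes. Without DMSO 1, DMSO 3, genistein 1 or genistein 2, 11, 8, 6 and 5 were, which is 12.5% to 27.5% of the 40. The shares of all genes in those fits were 8.14%, 5.49%, 4.74% and 4.56%. After BMP6 none of the 40 was called in limma, against 0.837% of all genes, with 24 (60.0%) at an unadjusted p under 0.05, against 18.9%, and a median of 1.21. Without DMSO 1, 1 of the 40 (2.5%) was called, higher, against 0.943% of all genes. Without BMP6 2 a lone BMP6 library remained, so the calls of that fit are not read for the 40.

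Genes with an E2F word in the window were compared with those without, as a description. After genistein 16 of 22 with the word had negative estimates (median -0.48), against 10 of 20 without it (median 0.05). After BMP6 17 of 22 and 15 of 20 were positive (medians 0.62 and 0.79). Among the other replication and G1/S genes 29.5% held the word, and among the G2 and mitosis genes 9.38%.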

How the data were processed

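PolyA RNA of 8 HepG2 libraries was sequenced. The deposited FPKM values were made by the authors, 1 per Ensembl gene and library, per the file headers. The submitters' processing notes name TopHat 1.1.0, Bowtie, Cufflinks 1.0.3, Cuffdiff and hg18, with settings and order not given in the sources used here. Depth is unknown: the 1000 lowest values of a library followed transcript length with a Spearman correlation of -0.0811 to 0.0775, so reads were not recovered and no interval for counting error is given. Groups and replicate numbers came from the titles. A gene was tested if 2 or more libraries reached 1 FPKM. The log2(FPKM + 1) values entered, unscaled, 1 limma fit (limma 3.58.1, R 4.3.3) of all 8 libraries, with 5 residual and 3.22 prior degrees of freedom. Summaries used Python 3.11.15 and SciPy 1.17.1. The fit was tested on simulated data. Deviations from the group mean correlated at -0.25 to 0.29 for libraries with the same replicate number and at -0.59 to 0.59 for the others. Deviations within a group of 2 or 3 libraries sum to 0, so this check cannot decide whether the libraries were paired. The numbers were not treated as pairs.

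The members and the gene lists were chosen with earlier results of these data known. Library values were given for members past the threshold, for up to 2 members of each role with the smallest p after genistein, for the 3 with the smallest p in each other comparison, and for the members highest and lowest in DMSO; of each other list up to 8 called genes were eligible. Members named outside this rule were chosen after their values were seen. Alternatives changed the pseudocount, the filter, the scaling, the libraries and the block. Promoter sequences are from RefSeq, GRCh38.p14.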

Additional observations from a re-analysis of the deposited data

How the results depend on the processing

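Depth is unknown and groups hold 2 or 3 libraries, so a missed threshold does not show that levels were equal. Counts below are genes called by limma, in 3 comparisons in turn: genistein with DMSO, BMP6 with DMSO, and genistein with BMP6. Leaving out 1 library at a time gave 0 to 9, 0 to 6 and 0 to 3 of the 51 genes, 1 to 14, 0 to 14 and 0 to 3 of the other replication and G1/S genes, 1 to 24, 0 to 13 and 0 of the G2 and mitosis genes, and 229 to 2671, 5 to 1999 and 42 to 629 of all genes. Where a lone library remained it was assumed to vary like the other groups. Non-overlapping genes, an alternative chosen after seeing the data, numbered 7 to 12 higher (24.1% to 31.3% of all genes) and 9 to 23 lower (21.6% to 31.7%), 24 to 41 (17.8% to 41.3%) and 1 to 14 (19.3% to 43.2%), and 0 to 9 (17.2% to 49.0%) and 21 to 44 (13.6% to 41.4%). With DMSO 1, genistein 2 and BMP6 1 left out together, the calls were 8, 4 and 8 of the 51, 17, 3 and 4 of the others, and 2780, 503 and 883 of all genes. For non-overlap this gave 13 higher and 24 lower (33.9% and 33.1% of all genes), 43 and 4 (45.5% and 37.0%), and 2 and 45 (35.0% and 43.7%). Median-of-ratios scaling gave 7, 3 and 7 of the 51, against 17.7%, 3.02% and 3.29% of all genes. After BMP6 it gave 3 of the others, 7 of the mitosis genes and 382 of all genes, with 417 of all genes for genistein against BMP6. It moved the median of all genes by -0.10 after genistein and -0.15 for genistein against BMP6. Quantile normalization gave 6, 2 and 5 of the 51, against 18.9%, 2.67% and 3.35% of all genes. It gave 13, 2 and 2 of the others, 19, 3 and 0 of the mitosis genes, and 2395, 338 and 424 of all genes. With only the 2 groups compared, 9 and 0 of the 51 were called with genistein, 14 and 1 of the others, and 2690, 17 and 37 of all genes. With a pseudocount of 0.1, CCNE2, FEN1 and UNG were called after genistein (5.88%, against 10.1% of all genes), and E2F2 was not. A mean of at least 5 FPKM left 50 of the 51 tested, without CCNE2. Of these 2 (4.0%), FEN1 and UNG, were called after genistein, against 12.5% of all genes, and E2F2 again was not. The same filter gave 1 of 70 others for genistein against BMP6 (1.11% of all genes) and 38 of all genes after BMP6. Without a filter 1 of the 51, CCNE2, and 1 of the others were called after BMP6, against 1.15% of all genes. CCNE2 read above 0 in DMSO alone, so it could only come out lower. With genes above 0 in all libraries, 2 of the others and 2 mitosis genes were called after BMP6, against 1.53% of all genes. For genistein against BMP6 that filter called 1 of the others, against 1.93% of all genes. A replicate block called 0 of the 51 in each comparison, 1 and 0 of the others with genistein, 4 mitosis genes after genistein and 414, 4 and 7 of all genes. Whether the replicate numbers pair the libraries is not known. Signs turned for estimates near 0: after genistein CDC6 was -0.0436 without the 3 libraries and ranged from -0.0275 (without DMSO 1) to 0.511 with 1 library left out, CDC45 from -0.106 (without DMSO 1) to 0.701, and CHAF1B from -0.233 to 0.058 (without genistein 3; 0.0068 without DMSO 3). After BMP6 FEN1 ranged from -0.0174 (without BMP6 2) to 0.705, and E2F2 from -0.468 (without BMP6 2; -0.0838 without DMSO 1) to 0.704. The cause was not tested.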
